A study of Mus musculus with 9 samples.

Results

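The genes described here are 8 tied to heat production in brown fat or related to genes that are. They were followed in cultured mouse cortical astrocytes given noradrenaline. They were chosen by symbol, as Ucp1, Ucp2, Dio2, Dio3, Ppargc1a, Ppargc1b, Cidea and Fgf21, and all 8 had a row among the 22100 rows of the deposited count table. Poly(A) RNA was sequenced from 9 libraries, 3 in each of 3 groups. In the first group cells were exposed to 50 µM noradrenaline and collected at 90 min. The second group had the same 90 min exposure, then medium without the ligand, and was collected 3 days after the application. The third group, the controls, was unstimulated and carries the 3 day label. No control of the 90 min time is analysed here, so in that comparison noradrenaline and the hour of collection cannot be told apart, and the labels do not say whether control dishes were given fresh medium. All cells were grown in medium with 10% serum and passaged before confluence, and no strain, age or sex of the animals is given. The replicates are not stated to be separate cultures or animals, so the spread between libraries may be technical.

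In brown fat, noradrenaline released by sympathetic nerves acts on beta adrenoceptors, raises cyclic AMP and activates protein kinase A. The kinase phosphorylates CREB family factors and, through p38 kinase, factors that switch on the thermogenic genes. Uncoupling protein 1 lets protons leak back across the inner mitochondrial membrane so that respiration yields heat, type 2 deiodinase turns thyroxine into the active hormone triiodothyronine inside the cell, and the PGC-1 coactivators drive mitochondrial biogenesis. In the brain, type 2 deiodinase is known chiefly from astrocytes and tanycytes, where it supplies neurons with triiodothyronine.

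The members were named with responses in these same libraries in view. Their values in all 3 comparisons are therefore a description, and no p-value is given for any of them. Counts of those called are printed beside the share of all genes called and nothing is read from them.

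RefSeq promoter sequences on GRCm38.p6, an older build than the one named for the counts, were matched for 6 members, and the 250 bases before the annotated start are shown for 4 of them. They were searched on both strands for the cyclic AMP response element TGACGTCA and for its shorter form TGACG, which the longer motif contains. Capitals mark the matches, and all 4 are written in the direction of transcription. Dio2 and Ucp1 are shown because their levels differed most at 90 min, Ucp2 as the abundant relative of Ucp1, and Ppargc1a because its level did not separate the groups. They lie at chr12:90739039-90739288 on the minus strand (Dio2), chr8:83290098-83290347 on the plus strand (Ucp1), chr7:100493108-100493357 on the plus strand (Ucp2) and chr5:51567726-51567975 on the minus strand (Ppargc1a).
Dio2: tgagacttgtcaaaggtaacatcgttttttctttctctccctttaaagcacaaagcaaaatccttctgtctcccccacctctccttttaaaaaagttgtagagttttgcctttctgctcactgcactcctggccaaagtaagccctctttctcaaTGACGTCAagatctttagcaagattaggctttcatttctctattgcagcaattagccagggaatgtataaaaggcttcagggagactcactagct
Ucp1: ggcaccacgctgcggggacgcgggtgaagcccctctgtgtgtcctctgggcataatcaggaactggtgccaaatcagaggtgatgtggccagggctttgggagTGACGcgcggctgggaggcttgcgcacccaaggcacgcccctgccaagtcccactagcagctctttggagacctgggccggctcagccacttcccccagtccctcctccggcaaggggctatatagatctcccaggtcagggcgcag
Ucp2: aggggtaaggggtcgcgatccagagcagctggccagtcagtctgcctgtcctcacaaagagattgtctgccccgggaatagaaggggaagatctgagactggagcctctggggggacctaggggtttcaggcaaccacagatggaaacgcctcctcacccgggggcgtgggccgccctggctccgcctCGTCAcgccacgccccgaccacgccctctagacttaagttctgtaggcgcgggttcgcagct
Ppargc1a: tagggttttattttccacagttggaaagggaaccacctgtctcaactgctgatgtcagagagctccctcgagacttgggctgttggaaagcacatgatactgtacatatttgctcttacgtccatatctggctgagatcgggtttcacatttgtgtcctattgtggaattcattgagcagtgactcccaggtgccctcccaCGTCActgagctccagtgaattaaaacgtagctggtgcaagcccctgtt

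The Dio2 window held the full element, from 95 to 88 bases before the start, in a window of 41.6% G and C. The Ucp1 window held TGACG on the plus strand from 147 to 143 bases before the start. The shorter form lay on the other strand at 62 to 58 bases in Ucp2, at 49 to 45 bases in Ppargc1a and at 68 to 64 bases in Fgf21, and the Dio3 window held none. Of 32851 promoter windows of the same length, 1.55% held TGACGTCA and 17.8% held TGACG. A match is a description of letters, and both genes with and without a difference at 90 min had one. The well-studied cyclic AMP elements of mouse Ucp1 lie largely in an enhancer outside this window. Ppargc1a has several promoters, and only the window shown was searched, so elements at its other starts were not looked for.

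Library totals ranged from 15529158 to 18729980 counts. Levels are given as CPM, counts relative to the library total after TMM normalisation, and the 3 counts that a count of 0 allows came to 0.158 to 0.190 CPM in a library. All 10 astrocyte markers passed the count filter, among them the glutamate transporter gene Slc1a3 (130.5 CPM in controls) and the connexin gene Gja1 (55.5 CPM), while the filament gene Gfap was at 1.13 CPM. At 90 min 2 of the 10, Slc1a3 and Gja1, rose and 5 fell by edgeR, where 33% of all tested genes were called. Those that fell were Sox9 (247.6 CPM in controls, 140.5 CPM at 90 min, log2 −0.82), Aqp4, S100b, Aldh1l1 and Glul. The 10 summed to 681.8 to 713 CPM at 90 min, 698.3 to 711.1 CPM at 3 d and 708.7 to 738.9 CPM in controls. Fibroblast and meningeal markers summed to 2192 to 2697 CPM at 90 min, 2254 to 2481 CPM at 3 d and 2670 to 2958 CPM in controls, and 1 of 5 tested, Pdgfrb, fell at 90 min (log2 −0.97, edgeR adjusted p = 2.29e-12). The oligodendrocyte marker Mbp rose (log2 0.80, edgeR adjusted p = 1.10e-07), and Cspg4 of the same lineage and the endothelial marker Tek fell (log2 −0.53 and −0.66, edgeR adjusted p = 0.0152 and 2.04e-06). Of the 5 endothelial markers only Tek passed the count filter, and Cldn5 had 0 counts throughout. Of the 6 oligodendrocyte lineage markers 4 passed, and Olig2 had 0 counts throughout. These single genes thus do not show that such cells were present. The part of these cell types in the results below was not tested.

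Ucp1, the uncoupling protein gene of brown fat, had 27, 25 and 30 counts in the 90 min libraries, 0 in each 3 day library and 0 in each control. These counts correspond to 1.51, 1.39 and 1.803 CPM at 90 min, a mean of 1.57 ± 0.213 CPM (SD, n = 3). The transcript was thus detected in every library collected at the end of the exposure and in none of the other 6. Against 3 counts over the group, and with the 82 counts at 90 min taken as measured, the level at 90 min was at least 26.3-fold higher than in controls. The exact 95% counting limit, which allows for error in both groups, was 20.9-fold. At 3 d over 90 min the same limit put the ratio at no more than 0.0435. These limits cover counting error only. Between 3 d and control no fold can be given, since all 6 libraries were at 0. In a culture measured in bulk, more cells that carry a transcript and more transcript per cell cannot be told apart.

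Ucp2, a widely expressed relative in the same carrier family that is not held to be a heat producer, was abundant in all groups. It was at 602, 644 and 557.5 CPM in the 90 min libraries, at 321, 313 and 323 CPM in the 3 day libraries and at 314, 319 and 314 CPM in controls. The 90 min libraries were all above the other 6, and the 3 day and control libraries overlapped. Means were 601 ± 43.4, 319 ± 5.36 and 316 ± 2.89 CPM (SD, n = 3 each). The fitted log2 fold change was 0.93 (SE 0.05) at 90 min over control, a 1.90-fold level, and 0.02 (SE 0.05) at 3 d over control. The third uncoupling protein gene, Ucp3, which is known from muscle, was too low to be tested, with 14, 10 and 5 counts at 90 min, 4, 5 and 7 at 3 d, and 5, 2 and 2 in controls.

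**Figure D1:**
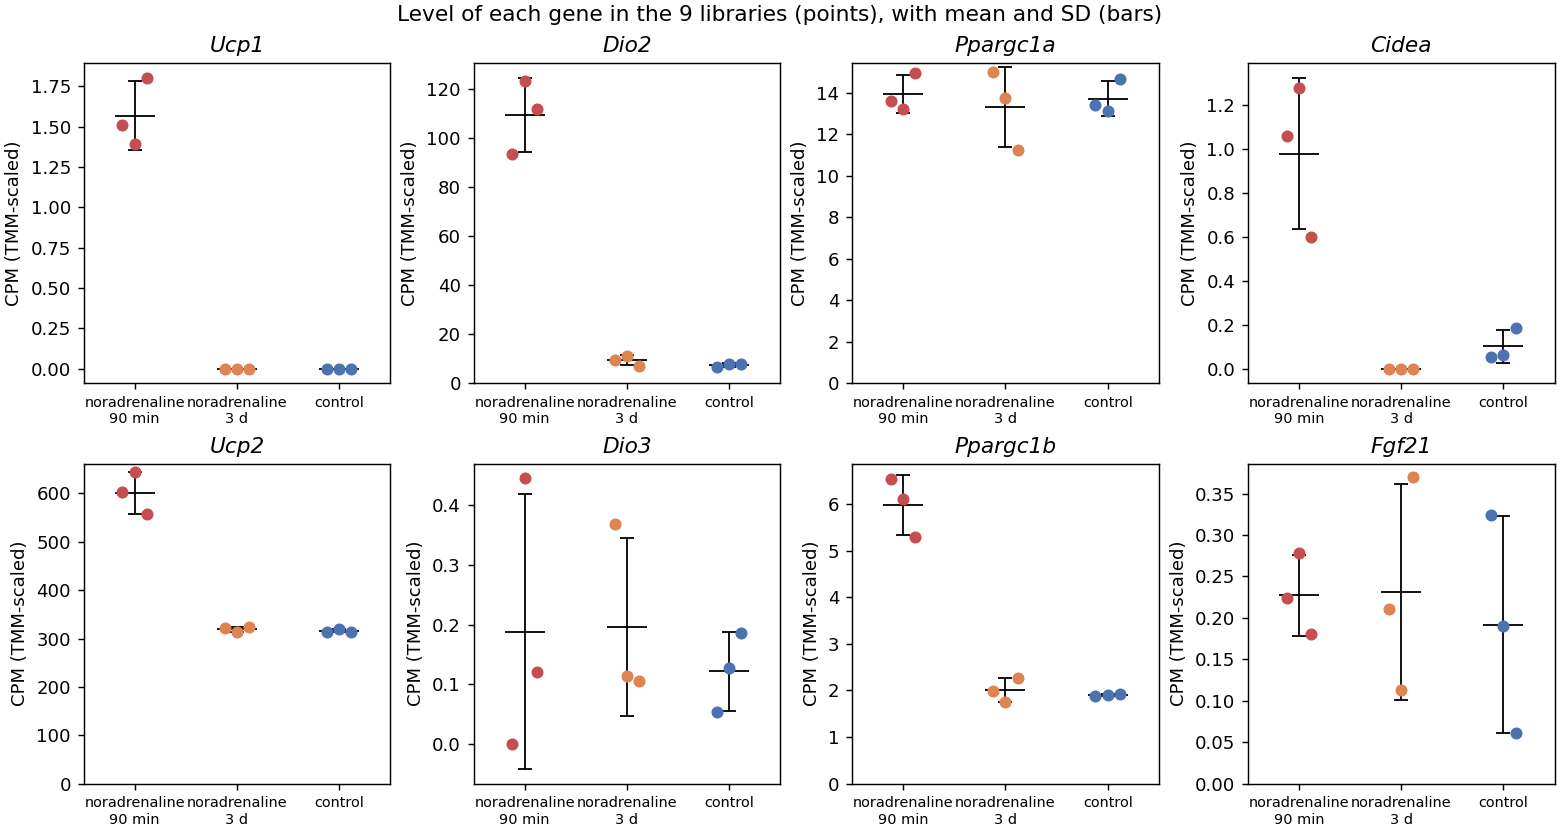
Level of each of the 8 genes in CPM after TMM scaling (y axis, a separate linear scale per panel) in the 9 libraries (points), by group, with mean and SD (bars, n = 3). The 90 min libraries sit above all others for Ucp1, Ucp2, Dio2, Ppargc1b and Cidea, and the groups overlap for Ppargc1a, Dio3 and Fgf21.

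Among the deiodinases, Dio2 differed the most. It was at 93.4, 123 and 112 CPM in the 90 min libraries, at 9.46, 11.2 and 7.15 CPM in the 3 day libraries and at 6.48, 7.79 and 7.85 CPM in controls. The lowest 90 min library was thus above the highest of the other 6 by a wide margin, while the 3 day and control ranges overlapped. Means were 109.6 ± 15.1, 9.28 ± 2.05 and 7.37 ± 0.774 CPM (SD, n = 3 each). The level at 90 min was 14.9-fold that of controls (log2 3.9, SE 0.13), and the level at 3 d was 11.8-fold lower than at 90 min. At 3 d over control the log2 value was 0.33 (SE 0.16) and the ratio of summed counts 1.26 (95% counting interval 1.10 to 1.45, which leaves out the spread between libraries), with 3 day library 3 inside the control range and libraries 1 and 2 above it.

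Dio3, which codes for the deiodinase that inactivates thyroid hormones, was close to the limit of detection. It had 0, 8 and 2 counts at 90 min, 7, 2 and 2 at 3 d, and 1, 2 and 3 in controls, and did not pass the count filter. The summed counts of 10, 11 and 6 put 90 min over control at 1.60, with an exact 95% counting interval of 0.528 to 5.37, and 3 d over control at 1.67 (0.565 to 5.49). A difference was not detectable at this depth. Dio1, the deiodinase gene of liver and kidney, had 0 counts in all 9 libraries.

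Of the PGC-1 coactivators, Ppargc1a is the one known as the cyclic AMP target of brown fat, muscle and liver. It was at 13.6, 13.2 and 14.96 CPM in the 90 min libraries, at 14.98, 13.7 and 11.2 CPM in the 3 day libraries and at 13.4, 13.1 and 14.7 CPM in controls. The 3 groups overlapped. Means were 13.9 ± 0.918, 13.3 ± 1.91 and 13.7 ± 0.823 CPM (SD, n = 3 each). The log2 fold change was 0.02 (SE 0.10) at 90 min and −0.04 (SE 0.10) at 3 d over control. The summed 730 and 692 counts at 90 min and in controls stood at a ratio of 1.01 (95% counting interval 0.913 to 1.13), and the 739 counts at 3 d stood to controls at 0.971 (0.874 to 1.08). Values per gene do not separate the transcripts that start at the gene's several promoters.

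Its paralog Ppargc1b did separate the groups. It was at 6.54, 6.11 and 5.29 CPM in the 90 min libraries, at 2.00, 1.76 and 2.28 CPM in the 3 day libraries and at 1.89, 1.90 and 1.92 CPM in controls. All 90 min libraries were above the other 6, and the 3 day libraries lay on both sides of the controls. The level at 90 min was 3.14-fold that of controls (log2 1.65, SE 0.17), with 315 counts in all at 90 min, 112 at 3 d and 96 in controls, and at 3 d over control the log2 value was 0.08 (SE 0.19). In the RefSeq genes of the older build, the spans of 3 annotated genes overlap Ppargc1b, 1 overlaps Dio2 and 1 overlaps Cidea. Whether their exons overlap was not checked, and whether strand was used in counting is not given. It is thus not known whether reads of these partners enter the values.

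Cidea codes for a lipid droplet protein that marks brown fat in mice. It had 19, 23 and 10 counts in the 90 min libraries, 0 in each 3 day library, and 1, 1 and 3 counts in controls. Means were 0.980 ± 0.346 CPM at 90 min, 0 CPM at 3 d and 0.101 ± 0.07335 CPM in controls (SD, n = 3 each). The summed 52 and 5 counts at 90 min and in controls had a ratio of 10.0 (95% counting interval 4.02 to 32.1). The fitted log2 value was 3.23 (SE 0.62), and 3.93 without control 3, which held 3 of the 5 control counts. At 3 d there were 0 counts against 5 in controls, and the exact 95% counting limit of the ratio was 0.992, close to no difference. That limit was 0.0695 at 3 d over 90 min. Fgf21, the gene of a hormone that brown fat and liver release, had 4, 5 and 3 counts at 90 min, 4, 2 and 7 at 3 d, and 6, 3 and 1 in controls. Its ratio to controls was 1.15 (0.457 to 2.98) at 90 min and 1.18 (0.479 to 3.01) at 3 d, and a difference was not detectable at this depth.

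**Figure D2:**
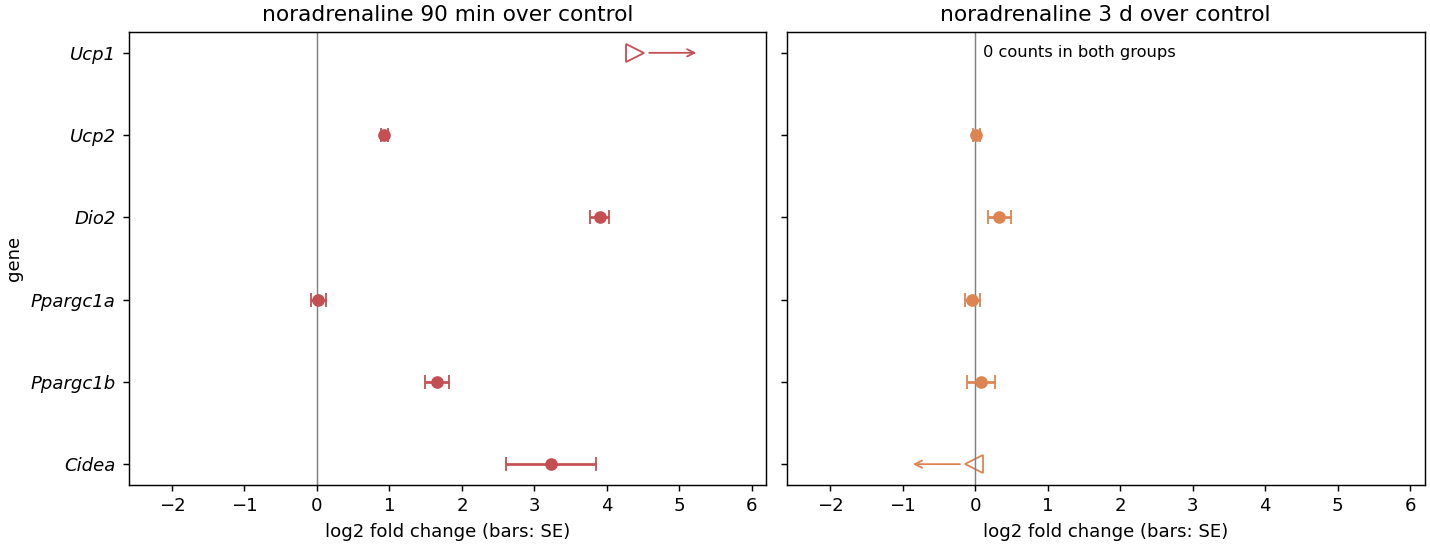
Log2 fold change of the 6 genes that passed the count filter (rows), at 90 min over control (left) and 3 d over control (right), with SE (bars). Open triangles with arrows mark exact 95% counting limits where a group was at 0, at a ratio of 20.9 for Ucp1 at 90 min and 0.992 for Cidea at 3 d. Ppargc1a sits at 0.02 beside Ppargc1b at 1.65 at 90 min.

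Dio3 and Fgf21 did not pass the filter, and Ucp1 and Cidea passed it only through the 90 min group, where they were high. Of the 6 that passed, 5 were called higher at 90 min over control (edgeR quasi-likelihood test, adjusted p below 0.05), where 17.5% of the 13090 tested genes were called higher and 15.5% lower. The 90 min libraries of these 5 were all above the controls, as they were for 22.3% of tested genes. At 3 d over 90 min 5 were called lower, where 20.4% of genes were, and the ranges of 5 did not overlap, where 23.8% of genes had that pattern. At 3 d over control edgeR called 0 of 6, where 0.115% of genes were called in either direction, 0.0382% higher and 0.0764% lower. The ranges did not overlap for 1, Cidea, which was lower, where 8.12% of genes were lower and 8.03% higher without overlap. DESeq2 also called 0, where it called 28 of all genes higher and 40 lower. At an unadjusted p under 0.05 were 1221 of the 13090 tested genes with edgeR and 872 with DESeq2. Of the members the count there was 1 with either tool, Cidea in both. Which member it was varied over the alternatives, so that it supports neither Cidea nor Dio2. Over 15 alternatives it was Cidea alone in 5, Dio2 alone in 3, both in 3 and neither in 4. The background at 3 d rests on 15 genes. It became 3, 0 and 3 genes without control 1, 2 and 3, 5 and 4 without 3 day library 2 and 3, and 29 and 83 without 90 min library 2 and 3, with 0 members called in each of these fits. The 3 comparisons share libraries and are not independent of each other.

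The genes with the nearest profile over the 9 libraries were found by Euclidean distance of log2 CPM after subtracting the control mean, among 12726 named genes. For Ucp1 they were the basic leucine zipper factor genes Maff (distance 0.52), Atf3 (0.65) and Fosb (0.76), on a log2 scale with 2 counts added, which compresses the change of a gene at 0. For Dio2 they were Maff (0.59), the G protein subunit gene Gng4 (0.61) and the vitamin D receptor gene Vdr (0.74). Maff was at 929 CPM at 90 min, 70.2 CPM at 3 d and 62.2 CPM in controls, and Vdr at 597, 61.0 and 51.8 CPM. For Ppargc1b they were Rab38, Pmvk and the pentraxin gene Ptx3 (0.32, 0.33 and 0.33), and for Ucp2 Icmt, the fatty acid elongase gene Elovl5 and Mid1 (0.14, 0.16 and 0.17). For Cidea the growth factor gene Areg was nearest, at 1.41, then Lmnb1 and Pcsk1. With 52 counts in all at 90 min, 0 at 3 d and 5 in controls, counting error and the 2 added counts weigh on these distances. Whether its profile is distinct was not tested. For Ppargc1a, whose profile was flat, Mfsd4a, Dock11 and Ptar1 were nearest (0.13, 0.18 and 0.18).

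**Figure D3:**
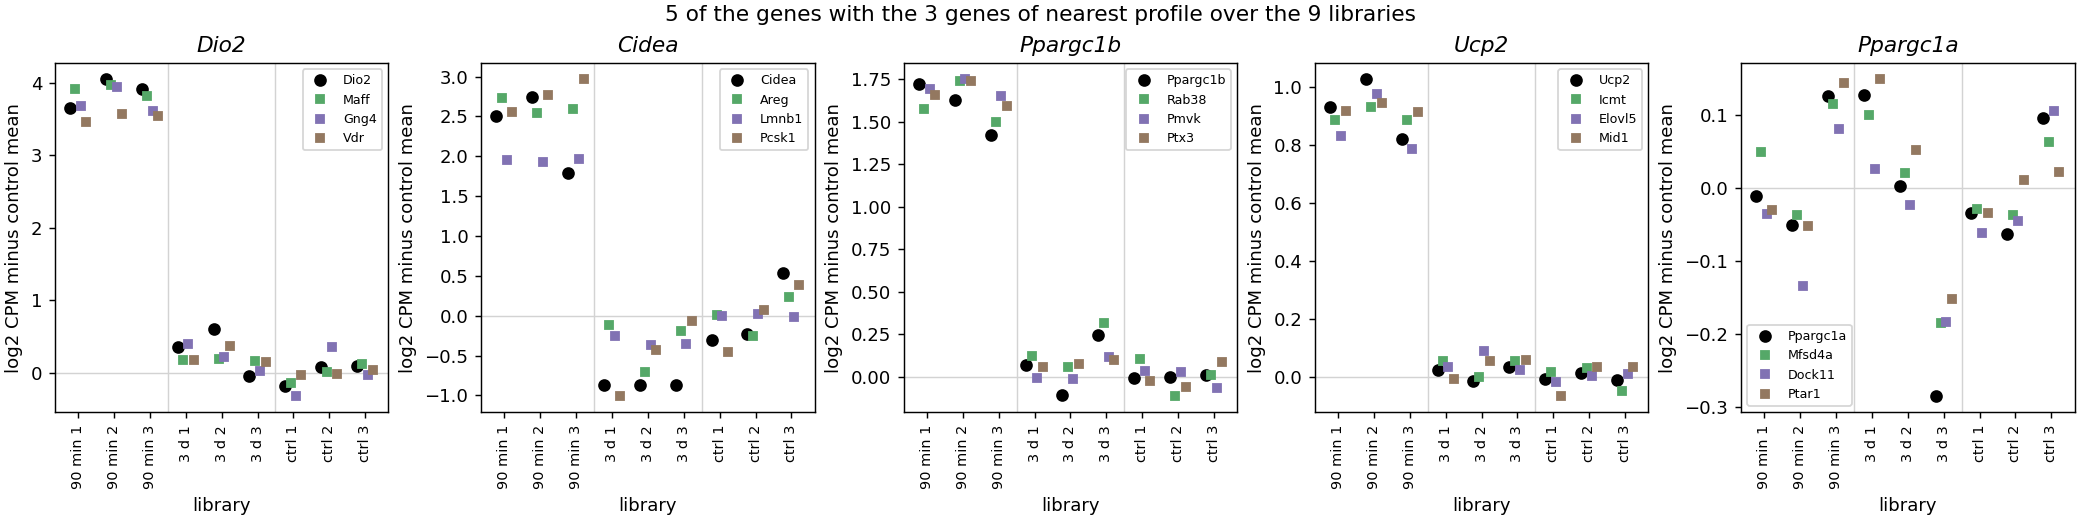
Log2 CPM minus the control mean (y axis, a separate scale per panel) in the 9 libraries (x axis) for 5 of the genes (black circles) and the 3 genes nearest to each (coloured squares). In the Dio2 panel all 4 genes are high in the 90 min libraries and near 0 in the other 6, and in the Ppargc1a panel the 3 groups overlap.

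The wider pathway was read from 8 lists of other genes, 178 in all, of which 145 passed the count filter. At 90 min 36 of the 145 rose and 30 fell, 45.5% of them where 33% of all tested genes were called. The median log2 was 0.03 beside −0.001 over all genes. Of the 145, 3 passed the filter only through the 90 min libraries, where they were high, and 2 of these are among the 36. The share called in each list below is by edgeR and stands beside the 33% over all tested genes, 17.5% higher and 15.5% lower. All adjusted p-values that follow are from edgeR's quasi-likelihood test with Benjamini-Hochberg adjustment over all tested genes.

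Among partners of the PGC-1 coactivators and regulators of mitochondrial biogenesis, 3 of 23 rose, 6 fell and 14 were not called. The share called was 39.1% and the median log2 −0.08. Mef2d, a muscle-type transcription factor that works with PGC-1 alpha, rose to 239.5 ± 6.90 CPM, against 129 ± 1.88 CPM in controls (log2 0.89, adjusted p = 2.75e-12). The retinoid receptor gene Rxra fell (log2 −0.56, adjusted p = 5.10e-08), as did Foxo1, a forkhead factor gene of fasting metabolism (log2 −0.79, adjusted p = 4.31e-09). The estrogen-related receptor gene Esrra, a principal PGC-1 partner, had a log2 value of −0.07 (adjusted p = 0.457). Prdm16, which specifies brown fat, had 0 counts at 90 min, 1 at 3 d and 0 in controls.

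Respiratory chain and citrate cycle genes rose in 8 of 23 members by edgeR and in 7 by DESeq2 (median log2 0.11). With either tool 0 fell, also at an unadjusted p under 0.05. The edgeR share called, 34.8%, was near the 33% over all tested genes (17.5% higher, 15.5% lower). The changes were small. The cytochrome c gene Cycs rose to 59.3 ± 3.25 CPM, against 42.3 ± 2.15 CPM in controls (log2 0.49, adjusted p = 5.89e-06), and Uqcrfs1 and Ogdh, of complex III and the citrate cycle, had log2 values of 0.22 and 0.18 (adjusted p = 0.00292 and 0.00275).

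Mitochondrial carriers rose in 6 of 13 members and fell in 1 (53.8% called, median log2 0.10). Slc25a25, which codes for a calcium-regulated carrier of ATP-Mg and phosphate, was at 131, 129 and 128 CPM in the 90 min libraries, at 23.1, 21.7 and 22.2 CPM in the 3 day libraries and at 25.8, 24.6 and 23.6 CPM in controls. It rose 5.24-fold (log2 2.39, SE 0.05, adjusted p = 7.46e-17). The phosphate carrier gene Slc25a3 rose (log2 0.64, adjusted p = 1.61e-09) and Slc25a30 did so by a log2 of 0.20 (adjusted p = 0.00196). The brain-type uncoupling protein genes Slc25a14 and Slc25a27 had log2 values of −0.22 and −0.14 (adjusted p = 0.149 and 0.611).

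Other brown and beige fat genes rose in 7 and fell in 5 of 20 tested members (60% called, median log2 0.435). The remaining 15 of the 35 did not pass the count filter. Of the 20, 3 passed only through the 90 min libraries, where they were high. These were Adrb3, Cited1 and Slc2a4, with fitted log2 values of 2.45, 1.42 and 2.21. All 3 lie above the median and so raise it, and Adrb3 and Slc2a4 are among the 7. They are given without a p-value, and nothing is read from the count or the median. Pdk4, a kinase gene that turns cells from glucose to fatty acid oxidation, rose to 27.6 ± 0.604 CPM, against 12.6 ± 0.547 CPM in controls (log2 1.13, adjusted p = 1.58e-09). Tle3, a corepressor gene that opposes Prdm16 in fat, fell to 85.9 ± 8.69 CPM, against 248 ± 10.2 CPM (log2 −1.53, adjusted p = 1.32e-12), and the adipogenic factor gene Cebpa fell to 27.6 ± 4.67 CPM, against 81.8 ± 2.21 CPM (log2 −1.565, adjusted p = 6.65e-11). Adrb3, the adrenoceptor of brown fat, had 16, 21 and 16 counts at 90 min, 1, 5 and 2 at 3 d, and 2, 5 and 2 in controls, with a fitted log2 value of 2.45 (SE 0.52), and of 3.05 without control 2. The glucose transporter gene Slc2a4, chosen like Adrb3 after its values were seen, had 13, 17 and 10 counts at 90 min, 9, 3 and 5 at 3 d, and 1, 3 and 4 in controls (fitted log2 2.21). The markers of mature fat cells differed among themselves. The nuclear receptor gene Pparg averaged 9.62 ± 1.45 CPM at 90 min, 10.01 ± 0.827 CPM at 3 d and 10.6 ± 0.906 CPM in controls, and the fatty acid binding protein gene Fabp4 averaged 5.73 ± 0.924 CPM at 90 min, 6.01 ± 0.302 CPM at 3 d and 4.51 ± 0.317 CPM in controls (SD, n = 3 each). Other markers were at or near 0. Summed over 3 libraries, Adipoq had 1 count at 90 min, 0 at 3 d and 0 in controls, Lep and Cfd had 0 throughout, and Elovl3 and Cox8b had 1 count each at 90 min and 0 elsewhere. The 9 adipocyte markers summed to 13.7 to 18.1 CPM at 90 min, 15.2 to 17.3 CPM at 3 d and 14.8 to 15.95 CPM in controls, and 0 of the 2 that passed the filter, Pparg and Fabp4, was called (adjusted p = 0.422 and 0.0697).

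Genes that handle thyroid hormone rose in 4 and fell in 3 of 17 tested members (41.2% called, median log2 −0.04). Hr, a nuclear corepressor gene that is itself a thyroid hormone target in brain, was at 31.5, 32.5 and 31.7 CPM in the 90 min libraries, at 7.25, 10.04 and 8.42 CPM in the 3 day libraries and at 7.77, 6.46 and 8.47 CPM in controls (log2 2.07, SE 0.11, adjusted p = 2.74e-11). Slc7a5, an amino acid transporter that also carries thyroid hormones, rose by a log2 of 0.80 (adjusted p = 3.24e-09). The receptor gene Thra fell slightly (log2 −0.21, adjusted p = 0.000753), and Thrb had a log2 value of 0.04 (adjusted p = 0.732).

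Lipid droplet, lipolysis and fatty acid oxidation genes rose in 5 and fell in 6 of 22 (50% called, median log2 0.02). Fitm2, which codes for a protein of lipid droplet budding, rose to 72.4 ± 1.57 CPM, against 24.8 ± 0.384 CPM in controls (log2 1.54, adjusted p = 7.45e-14). Abhd5, the activator of fat triglyceride lipase, rose by a log2 of 0.43 (adjusted p = 1.23e-06). Cidec, the relative of Cidea in white fat, had 0 counts at 90 min, 1 at 3 d and 0 in controls.

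Of FGF21 receptors and stress inputs 1 of 8 rose and 3 fell (50% called, median log2 −0.09). Atf4, a stress factor gene known to induce Fgf21 in liver, rose (log2 0.46, adjusted p = 8.42e-08), while the receptor gene Fgfr3 and the kinase gene Eif2ak4 fell (log2 −0.70 and −0.38, adjusted p = 1.31e-06 and 2.49e-05). Of the inputs from cyclic AMP to p38 kinase 2 of 19 rose and 6 fell (42.1% called, median log2 −0.09). Crem, a CREB family factor gene that cyclic AMP induces, rose to 147 ± 12.2 CPM, against 14.4 ± 0.980 CPM in controls (log2 3.36, adjusted p = 7.46e-17). Atf7 and the CREB coactivator gene Crtc3 fell (log2 −0.60 and −0.50, adjusted p = 1.54e-08 and 1.50e-07).

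**Figure D4:**
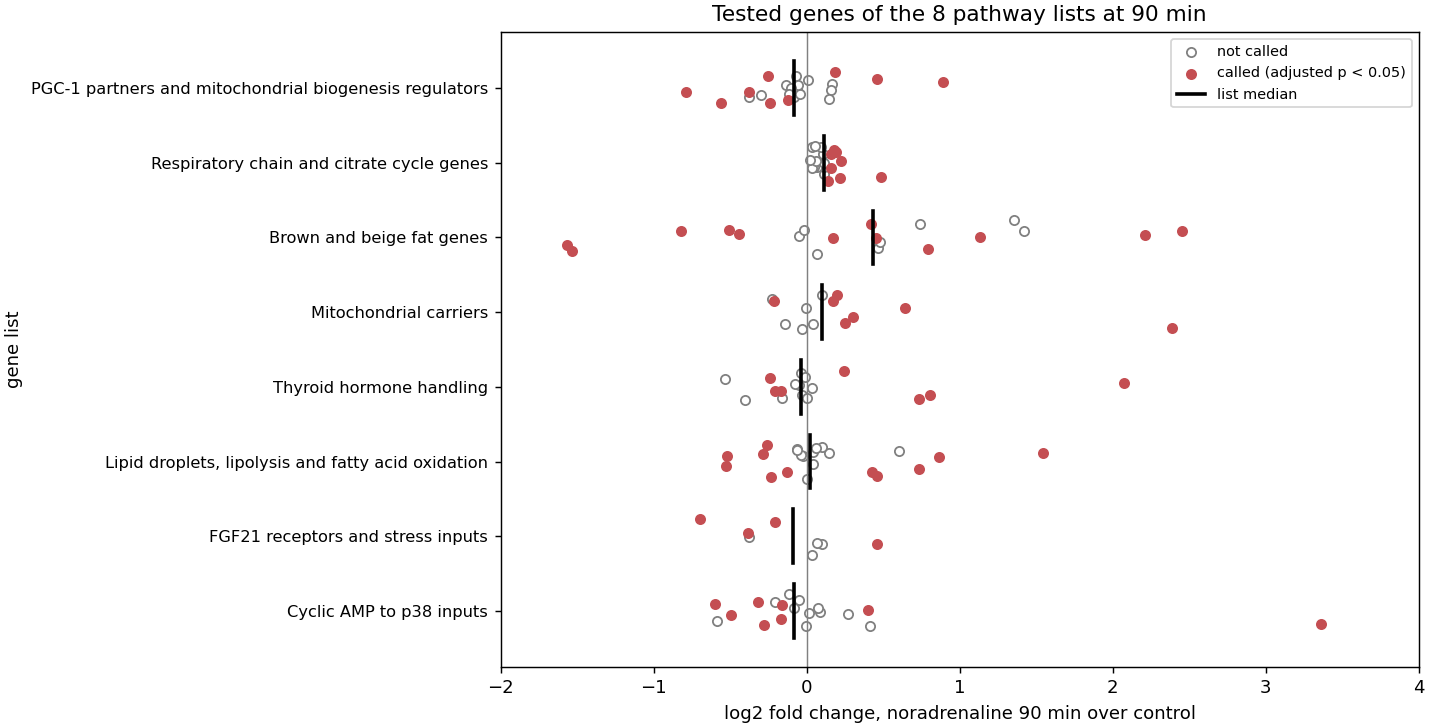
Log2 fold change at 90 min over control (x axis) of the 145 tested genes of 8 pathway lists (rows), with called genes filled, others open and the list median as a bar. Medians lie between −0.09 and 0.435. Farthest to the right are Crem at 3.36, Adrb3 at 2.45, Slc25a25 at 2.39, Slc2a4 at 2.21 and Hr at 2.07. Adrb3, Slc2a4 and Cited1, which enter the median of 0.435, passed the count filter only through the 90 min libraries.

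At 3 d over control edgeR called 0 of the 145 pathway genes. It put 9 of them at an unadjusted p under 0.05, where 1221 of all 13090 tested genes were. DESeq2 called 1, Slc7a5, lower, where it called 28 of all genes higher and 40 lower. It put 8 of the 145 at an unadjusted p under 0.05, where 872 of all genes were. The median log2 of the 145 was 0 beside 0.001 over all genes. At 3 d over 90 min 32 rose and 39 fell, 49% where 39% of all tested genes were called. The 39 include Adrb3, Cited1 and Slc2a4, which passed the count filter only through the 90 min libraries, where they were high. Nothing is read from these counts.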

How the data were processed

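RNA was measured in 9 libraries of cultured mouse cortical astrocytes, grouped by sample title. The values are gene-level estimated counts as deposited. The submitters' processing notes name fastp 0.23.4, Salmon 1.8.0 and the mm39 build. No source used here states how transcripts were summed, whether values were rounded or which annotation release was taken. All values were whole, and rounding before the tests changed none. The members and the gene lists were chosen with earlier results of these data known.

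Tests used edgeR 4.0.16 under R 4.3.3. Its filterByExpr (minimum count 10, minimum total 15) left 13090 genes. Library sizes were scaled by TMM, and all 9 libraries entered 1 quasi-likelihood fit with a coefficient per group, tested on both sides with Benjamini-Hochberg adjustment, with a gene called at an adjusted p below 0.05. The SE is the log2 fold change divided by the square root of F. Ratios of summed counts carry exact 95% intervals from the binomial split of the counts, which cover counting error only, and a fold against a group at 0 uses 3 counts over that group. Named genes were the 8 members, the 3 nearest profiles of each (2 counts added before logs), and from each pathway list the 3 called genes with the smallest p at 90 min, marker genes, and others named as chosen later or given for their lack of a call or of counts. Some genes that this rule picks are not reported here. Replicates of a group differed beyond sampling noise (chi-square per degree of freedom 2.4 to 7.13). Alternatives were RLE size factors, no filter or a minimum count of 50, DESeq2 1.42.0, fits limited to the 2 groups in question, the replicate block, and leaving out each library.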

Additional observations from a re-analysis of the deposited data

Results flagged for a closer look

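The 2 collection times after noradrenaline differed for 5110 of 13090 tested genes and for 71 of 145 pathway genes by the edgeR test of 3 d over 90 min. The 71 include Adrb3, Cited1 and Slc2a4, which passed the count filter only through the 90 min libraries. The test sets both times against each other. With no control of the 90 min time, it does not separate the effect of noradrenaline from the time of collection. Cidea stood on opposite sides of the controls, with 52 counts over the 90 min libraries and 0 over the 3 day libraries, against 5 over the controls. That reversal as such was not tested and rests on few counts. Its lower side, 3 d over control, was not called by edgeR or DESeq2.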

How the results depend on the processing

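The number of members called was 5, 0 and 5 (90 min over control, 3 d over control, 3 d over 90 min) under all alternatives but 1. With a minimum count of 50, Ucp1 and Cidea were filtered out and 3 were called at 90 min over control and 3 at 3 d over 90 min. The pathway count at 3 d over control was 0 except for 2 without a filter and 1 with DESeq2. The number of all genes called at 3 d over control, 15, was 205 without a filter, 68 with DESeq2, 76 with only the 2 groups fitted and 3 with the replicate block, and 0 to 83 when single libraries were left out, and the cause was not tested. Leaving out single libraries gave 3534 to 4494 genes at 90 min over control and 4266 to 5319 at 3 d over 90 min, 57 to 73 and 60 to 77 pathway genes, and 5 members in each.

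Same-numbered libraries of different groups did not deviate together (correlations −0.148 to 0.049, others −0.156 to 0.177). This check sees only a deviation shared over many genes, so a pairing by replicate number is not excluded. The block is reported as an alternative only. Of 262 alternative log2 values of members 6 moved by more than the replicate spread, all of Ucp1 or Cidea, which have few counts. All 403 of the pathway genes followed there kept direction and call. A gene that an alternative filtered out gave no value. Most of these pathway genes were picked for a small p in the same libraries, so a kept call is a description and nothing is read from it. Depth limits Dio3, Fgf21, Ucp3 and the 3 d values of Cidea.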

Other observations

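Some pathway genes were too low to be tested and are given as counts summed over 3 libraries. The FGF21 co-receptor gene Klb had 20 at 90 min, 9 at 3 d and 6 in controls, and the lipase inhibitor gene Angptl4, itself a target of the PPAR receptors, had 2 at 90 min, 23 at 3 d and 15 in controls. Cd36, a fatty acid uptake gene of fat cells, had 0, 0 and 1.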
